A study of Mus musculus with 8 samples.

Results

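The 40 genes of DNA replication and mitosis were followed in the left kidneys of 8 mice, measured on 1-colour Agilent arrays 24 h after surgery. They were chosen by name as the minichromosome maintenance genes, other replication genes, cyclins and mitotic regulators, and all 40 were found among 36826 gene names on the array. Of these 40 genes, 35 were bright enough to test, having a probe that stood well above background on the 2 arrays of some group, and so did 21264 genes in all. The groups held 2 mice each, named here by the mouse numbers in the labels. Mimic mice (6 and 7) received 5 nmol of a miR-5100 mimic in 200 µl through the tail vein, carried by polyethylenimine nanoparticles, a cationic polymer that takes nucleic acids into cells. After 2 days their right kidney was removed, and the left kidney was clamped for 45 min and reperfused. Control-miRNA mice (1 and 5) had the same surgery after the same dose of a control miRNA on the same carrier. IRI mice (30 and 34) had the surgery with no injection, and for sham mice (1 and 4) only a midline incision is described. Strain, sex and age were not given in the sources used here. Removal of a kidney and ischaemia-reperfusion injury of the other always came together, so their parts in a difference from sham cannot be told apart. The mimic was the mature mouse miRNA, whose sequence lies at chr11:60728698-60728718 on the plus strand (RefSeq, GRCm38.p6). It is shown because it is the agent that set mimic mice apart, with its seed (bases 2 to 8) in capitals.
mmu-miR-5100: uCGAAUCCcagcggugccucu

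Cells copy their DNA in S phase and divide in M phase. Origins are licensed beforehand, when Orc proteins, Cdc6 and Cdt1 load the Mcm2-7 helicase. E2F factors, freed from RB proteins once cyclin D and cyclin E kinases are active, switch on the licensing and DNA synthesis genes. Cyclin A, cyclin B and Cdk1 then drive cells through G2 into mitosis, whose genes are switched on later by complexes that include Foxm1. Few tubule cells of an adult kidney divide, and surviving tubule cells are known to re-enter the cell cycle after ischaemic injury.

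Levels are given as log2 of the processed signal relative to the array's 75th percentile, so 0 is that percentile and a difference of 1 is a doubling. Levels of different genes are not compared, since each rests on its own probe. That percentile lay at a processed signal of 242 to 308 in mimic, 416 to 500 in control-miRNA, 468 to 600 in IRI and 408 to 476 in sham mice, and 53.2% to 58.8% of spots were well above background. Sham and IRI samples filled 1 row of the slide and both injected groups the other, so slide row and injection cannot be told apart. The number of arrays limits the precision. Errors of differences are standard errors of a fit over all 8 arrays, in which the groups share 1 estimate of the spread, and a gene was called when its Benjamini-Hochberg adjusted p in limma was under 0.05. In whole kidney, more dividing cells and more RNA per cell cannot be told apart.

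All replication genes tested but Mcm10 stood higher in each of the 6 injured kidneys than in both sham kidneys, while most mitosis genes were highest in 1 mimic and 1 control-miRNA mouse. In mimic against sham mice, 9 members rose and 1 fell among the 35 tested, against a background of 15.2% of all genes called higher and 12.8% called lower. In control-miRNA against sham mice, 13 rose and 0 fell (background 9.55% higher and 7.79% lower). The 13 include Tpx2, which was well above background on no sham array. In IRI against sham mice, 8 rose and 0 fell (background 9.45% higher and 8.85% lower). The median log2 difference from sham over the 35 members was 1.33 in mimic, 1.67 in control-miRNA and 1.02 in IRI mice, beside 0.11, -0.05 and -0.08 over all genes. These 3 comparisons share the sham arrays, so their calls are not independent of each other. The counts depended on single arrays: leaving out either sham mouse lowered them in mimic, control-miRNA and IRI mice. Leaving out mimic 7, control-miRNA 1 or either IRI mouse lowered the count of its own group, and leaving out control-miRNA 5 raised it. Such fits leave 1 mouse in a group, and the share of all genes called in them is not given here. A change in the members alone can therefore not be read from them.

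**Figure D1:**
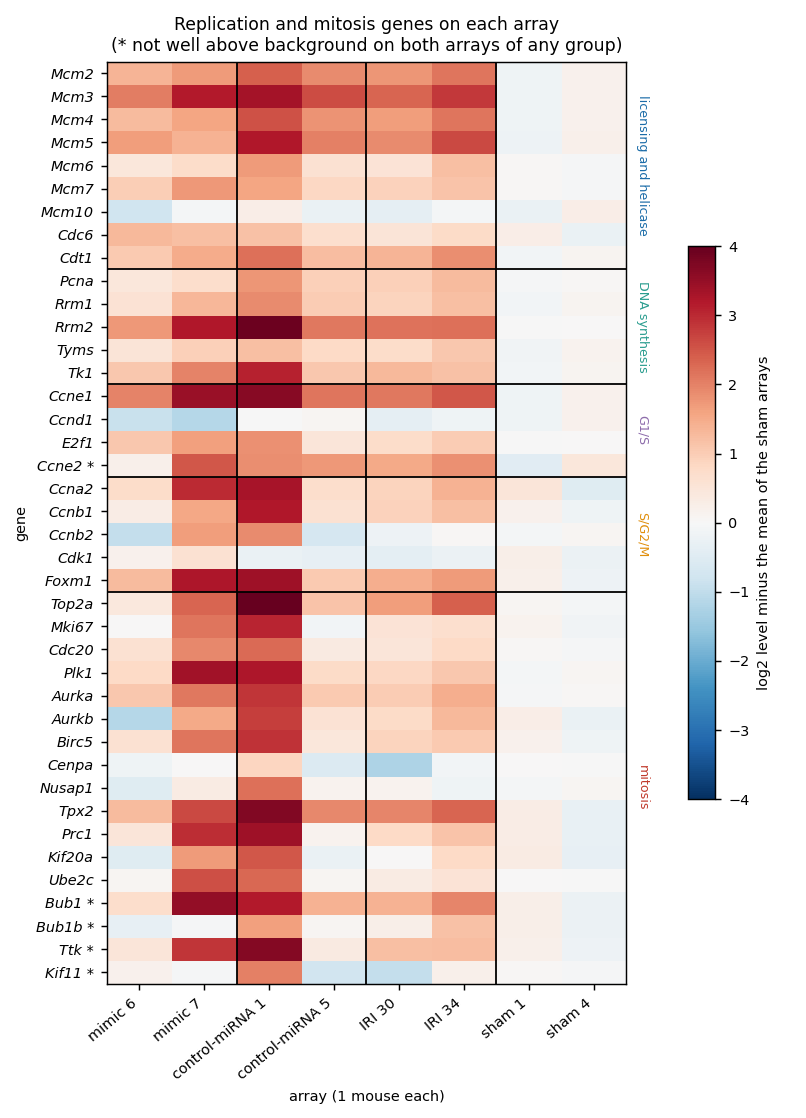
Each row is 1 of the 40 genes, grouped by role, and each column 1 mouse. Colour gives the log2 level minus the mean of the sham arrays, with stars at the 5 genes that were not tested. Licensing and synthesis genes are red in nearly all 6 injured kidneys, and most mitosis genes are darkest in mimic 7 and control-miRNA 1.

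Among the 9 genes of origin licensing and the replicative helicase, 7 rose in mimic, 7 in control-miRNA and 5 in IRI mice. Of all genes, 15.2%, 9.55% and 9.45% were called higher. The 9 genes had median differences from sham of 1.37, 1.72 and 1.61. In 8 of these 9 genes both mice of each injured group lay above both sham mice, a pattern that 39.1%, 33.1% and 33.0% of all genes showed in mimic, control-miRNA and IRI mice. The gene that did not was Mcm10. Promoters of Mcm3 and Cdt1, a helicase subunit and a helicase loader that rose in every injured group, are printed because the licensing genes moved together and mostly share an E2F-type motif. They cover 250 bases before to 50 after the start of transcription, at chr1:20820263-20820562 on the minus strand for Mcm3 and chr8:122567765-122568064 on the plus strand for Cdt1 (RefSeq, GRCm38.p6). Capitals mark matches to the letters TTGGCGC, to TTCCCGC, to TTGCCGC or to TTCGCGC on either strand.
Mcm3: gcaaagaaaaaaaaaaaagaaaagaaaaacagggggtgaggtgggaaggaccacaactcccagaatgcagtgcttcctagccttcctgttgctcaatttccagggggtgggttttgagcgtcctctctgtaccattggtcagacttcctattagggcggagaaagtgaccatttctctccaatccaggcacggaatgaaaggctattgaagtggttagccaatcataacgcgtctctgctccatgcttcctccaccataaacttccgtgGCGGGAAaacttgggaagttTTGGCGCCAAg
Cdt1: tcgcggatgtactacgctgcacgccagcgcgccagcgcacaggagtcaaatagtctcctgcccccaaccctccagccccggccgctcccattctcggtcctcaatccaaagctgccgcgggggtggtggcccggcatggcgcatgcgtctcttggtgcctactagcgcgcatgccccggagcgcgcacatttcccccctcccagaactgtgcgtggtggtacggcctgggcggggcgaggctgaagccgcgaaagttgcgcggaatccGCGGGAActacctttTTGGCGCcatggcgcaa

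Mcm2, a subunit of the Mcm2-7 helicase (probe chr6:88833619-88833678, mm9), had levels of 0.56 in mimic 6, 0.92 in mimic 7, 1.62 in control-miRNA 1, 1.11 in control-miRNA 5, 0.98 in IRI 30, 1.37 in IRI 34, -0.97 in sham 1 and -0.60 in sham 4. All 6 injured kidneys lay above both sham kidneys. By limma, the difference from sham was 1.53 ± 0.26 in mimic (adjusted p = 0.00917), 2.15 ± 0.26 in control-miRNA (adjusted p = 0.00428) and 1.96 ± 0.26 in IRI mice (adjusted p = 0.00523). Mcm3, read by 4 probes that all gave the same direction against sham (brightest at chr1:20793159-20793218, mm9), had levels of 1.67 in mimic 6, 2.78 in mimic 7, 2.93 in control-miRNA 1, 2.21 in control-miRNA 5, 1.92 in IRI 30, 2.42 in IRI 34, -0.56 in sham 1 and -0.22 in sham 4. Its injured and sham arrays did not overlap, and control-miRNA 1 and mimic 7 were highest. The difference from sham was 2.62 ± 0.42 in mimic (adjusted p = 0.00750), 2.96 ± 0.42 in control-miRNA (adjusted p = 0.00656) and 2.56 ± 0.42 in IRI mice (adjusted p = 0.00989).

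Mcm4 had levels of 1.46 in mimic 6, 1.78 in mimic 7, 2.75 in control-miRNA 1, 2.02 in control-miRNA 5, 1.87 in IRI 30, 2.34 in IRI 34, 0.02 in sham 1 and 0.39 in sham 4. The injured kidneys did not overlap with sham, and the mimic mice were the lowest of the injured. The difference from sham was 1.41 ± 0.31 in mimic (adjusted p = 0.0182), 2.17 ± 0.31 in control-miRNA (adjusted p = 0.00645) and 1.90 ± 0.31 in IRI mice (adjusted p = 0.00952). Mcm5 (probe chr8:77651350-77651410, mm9) had levels of 0.15 in mimic 6, -0.11 in mimic 7, 1.69 in control-miRNA 1, 0.50 in control-miRNA 5, 0.37 in IRI 30, 1.11 in IRI 34, -1.71 in sham 1 and -1.32 in sham 4. Both mimic mice lay below the other 4 injured mice and above both sham mice. It differed from sham by 1.53 ± 0.43 in mimic (adjusted p = 0.0387), 2.61 ± 0.43 in control-miRNA (adjusted p = 0.0107) and 2.25 ± 0.43 in IRI mice (adjusted p = 0.0158). Between mimic and control-miRNA mice, Mcm4 differed by -0.76 ± 0.31 (adjusted p = 0.135) and Mcm5 by -1.08 ± 0.43 (adjusted p = 0.132), neither past the threshold.

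Mcm7 had levels of 2.53 in mimic 6, 3.29 in mimic 7, 3.13 in control-miRNA 1, 2.38 in control-miRNA 5, 2.48 in IRI 30, 2.67 in IRI 34, 1.60 in sham 1 and 1.48 in sham 4. All injured kidneys exceeded sham, and it was called in mimic and control-miRNA mice, with differences of 1.37 ± 0.33 in mimic (adjusted p = 0.0250), 1.21 ± 0.33 in control-miRNA (adjusted p = 0.0474) and 1.03 ± 0.33 in IRI mice (adjusted p = 0.0726). Mcm6 levels were 3.26 in mimic 6, 3.56 in mimic 7, 4.52 in control-miRNA 1, 3.42 in control-miRNA 5, 3.36 in IRI 30, 4.02 in IRI 34, 2.86 in sham 1 and 2.76 in sham 4. All injured kidneys exceeded sham, with control-miRNA 1 highest, and none of its differences was called: 0.60 ± 0.38 in mimic (adjusted p = 0.269), 1.16 ± 0.38 in control-miRNA (adjusted p = 0.0821) and 0.88 ± 0.38 in IRI mice (adjusted p = 0.159). A dimmer second probe gave the opposite direction in mimic against sham mice, with both mimic values below the dimmest signal counted as well above background on their arrays.

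Cdt1, which brings the helicase to origins (probe chr8:125096893-125096952, mm9), had levels of 1.52 in mimic 6, 1.94 in mimic 7, 2.67 in control-miRNA 1, 1.70 in control-miRNA 5, 1.84 in IRI 30, 2.31 in IRI 34, 0.37 in sham 1 and 0.57 in sham 4. Injured and sham kidneys did not overlap. The differences from sham were 1.26 ± 0.35 in mimic (adjusted p = 0.0377), 1.72 ± 0.35 in control-miRNA (adjusted p = 0.0203) and 1.61 ± 0.35 in IRI mice (adjusted p = 0.0239). Cdc6, which works with Cdt1 in loading, had levels of -0.73 in mimic 6, -0.82 in mimic 7, -0.84 in control-miRNA 1, -1.33 in control-miRNA 5, -1.51 in IRI 30, -1.25 in IRI 34, -1.75 in sham 1 and -2.28 in sham 4 on its brighter probe. The mimic mice and control-miRNA 1 were highest, and all injured kidneys exceeded sham. It rose in the injected groups and was not called in IRI mice, with differences of 1.24 ± 0.25 in mimic (adjusted p = 0.0158), 0.93 ± 0.25 in control-miRNA (adjusted p = 0.0493) and 0.64 ± 0.25 in IRI mice (adjusted p = 0.131). A dimmer Cdc6 probe read -4.31 and -3.39 in mimic, -2.78 and -3.80 in control-miRNA, -3.86 and -3.25 in IRI and -6.83 and -7.21 in sham mice, where it was below background.

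Mcm10, which helps to activate the loaded helicase, had levels of -0.64 in mimic 6, 0.09 in mimic 7, 0.43 in control-miRNA 1, -0.12 in control-miRNA 5, -0.21 in IRI 30, 0.09 in IRI 34, -0.12 in sham 1 and 0.44 in sham 4 on its brighter probe. Here injured and sham kidneys overlapped, and no difference was called: -0.43 ± 0.33 in mimic (adjusted p = 0.349), -0.001 ± 0.33 in control-miRNA (adjusted p = 0.999) and -0.22 ± 0.33 in IRI mice (adjusted p = 0.667). A dimmer Mcm10 probe read -6.31 and -5.49 in mimic, -3.92 and -4.39 in control-miRNA, -4.22 and -4.56 in IRI and -6.71 and -6.78 in sham mice. On that probe the mimic and sham values were all below background and have no order, while control-miRNA and IRI mice were above them, so the 2 probes of Mcm10 differ in direction for these groups. With the mean of both probes, the difference was 1.29 in control-miRNA (adjusted p = 0.0297) and 1.07 in IRI mice (adjusted p = 0.0493).

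Genes of DNA synthesis followed, with 1 of 5 higher in mimic, 4 of 5 in control-miRNA and 2 of 5 in IRI mice. Of all genes, 15.2%, 9.55% and 9.45% were called higher, so the mimic count was near its share. In all 5 genes both mice of each injured group lay above both sham mice, as in 39.1%, 33.1% and 33.0% of all genes. The median differences from sham were 0.94, 1.45 and 1.10. Pcna, the sliding clamp of the replicative polymerases (probe chr2:132075420-132075557, mm9), had levels of 2.47 in mimic 6, 2.73 in mimic 7, 3.78 in control-miRNA 1, 2.96 in control-miRNA 5, 2.95 in IRI 30, 3.28 in IRI 34, 1.98 in sham 1 and 2.05 in sham 4. Both mimic mice were the lowest of the injured. It rose in control-miRNA and IRI mice and was not called in mimic mice, with differences of 0.59 ± 0.29 in mimic (adjusted p = 0.160), 1.36 ± 0.29 in control-miRNA (adjusted p = 0.0230) and 1.10 ± 0.29 in IRI mice (adjusted p = 0.0411). The difference between mimic and control-miRNA mice was -0.77 ± 0.29, adjusted p = 0.118.

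Ribonucleotide reductase makes the building blocks of DNA, and its subunit Rrm2 (probe chr12:25398824-25398883, mm9) had levels of 1.56 in mimic 6, 3.04 in mimic 7, 3.74 in control-miRNA 1, 1.94 in control-miRNA 5, 2.01 in IRI 30, 2.02 in IRI 34, -0.17 in sham 1 and -0.17 in sham 4. Mimic 7 and control-miRNA 1 stood well above the other 4 injured kidneys, which in turn stood above sham. Rrm2 differed from sham by 2.47 ± 0.65 in mimic (adjusted p = 0.0324), 3.01 ± 0.65 in control-miRNA (adjusted p = 0.0243) and 2.18 ± 0.65 in IRI mice (adjusted p = 0.0593). The other subunit, Rrm1, had levels of 0.05 in mimic 6, 0.80 in mimic 7, 1.38 in control-miRNA 1, 0.49 in control-miRNA 5, 0.38 in IRI 30, 0.70 in IRI 34, -0.62 in sham 1 and -0.41 in sham 4. No injured kidney fell within the sham range, and it was called in control-miRNA mice only, with differences of 0.94 ± 0.36 in mimic (adjusted p = 0.0919), 1.45 ± 0.36 in control-miRNA (adjusted p = 0.0382) and 1.05 ± 0.36 in IRI mice (adjusted p = 0.0895).

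Tyms, thymidylate synthase, had levels of 2.14 in mimic 6, 2.58 in mimic 7, 2.81 in control-miRNA 1, 2.44 in control-miRNA 5, 2.37 in IRI 30, 2.70 in IRI 34, 1.47 in sham 1 and 1.78 in sham 4. Injured and sham kidneys did not overlap, and the differences were 0.74 ± 0.24 in mimic (adjusted p = 0.0627), 1.00 ± 0.24 in control-miRNA (adjusted p = 0.0357) and 0.91 ± 0.24 in IRI mice (adjusted p = 0.0449). Tk1, the thymidine kinase of dividing cells, had levels of 1.12 in mimic 6, 2.06 in mimic 7, 3.12 in control-miRNA 1, 1.12 in control-miRNA 5, 1.37 in IRI 30, 1.22 in IRI 34, -0.05 in sham 1 and 0.16 in sham 4. Control-miRNA 1 and mimic 7 were highest, and every injured kidney exceeded sham. None of its differences was called: 1.53 ± 0.62 in mimic (adjusted p = 0.103), 2.07 ± 0.62 in control-miRNA (adjusted p = 0.0627) and 1.24 ± 0.62 in IRI mice (adjusted p = 0.208).

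**Figure D2:**
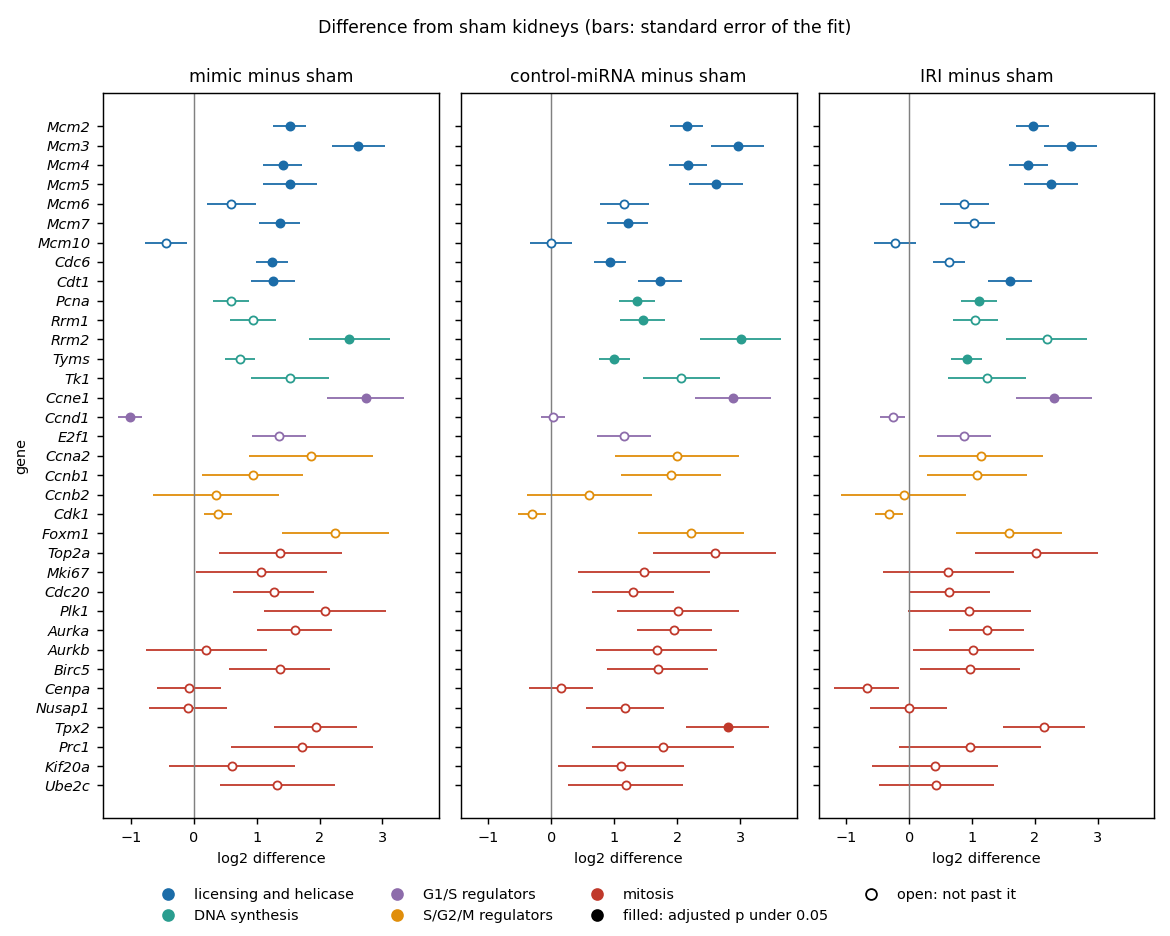
Points give the log2 difference from sham of the 35 tested genes in mimic, control-miRNA and IRI mice, with standard errors of the fit as bars. Filled points passed the adjusted p threshold. Filled points lie among the licensing, synthesis and G1/S genes, with Tpx2 in control-miRNA mice as the exception among mitosis genes, whose errors are wider.

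The genes that act at the G1/S boundary did not move as a block. Ccne1, cyclin E1, which activates Cdk2 at the start of S phase (probe chr7:38882937-38882960, mm9), had levels of -0.31 in mimic 6, 1.16 in mimic 7, 1.33 in control-miRNA 1, -0.18 in control-miRNA 5, -0.20 in IRI 30, 0.17 in IRI 34, -2.49 in sham 1 and -2.13 in sham 4. All 6 injured kidneys lay above sham, with mimic 7 and control-miRNA 1 on top. It rose by 2.73 ± 0.61 in mimic (adjusted p = 0.0198), 2.88 ± 0.61 in control-miRNA (adjusted p = 0.0227) and 2.30 ± 0.61 in IRI mice (adjusted p = 0.0431). E2f1, one of the activating E2F factors, had levels of -0.61 in mimic 6, -0.04 in mimic 7, 0.15 in control-miRNA 1, -1.20 in control-miRNA 5, -0.95 in IRI 30, -0.66 in IRI 34, -1.69 in sham 1 and -1.67 in sham 4. Injured and sham kidneys did not overlap, but no difference passed the threshold: 1.36 ± 0.43 in mimic (adjusted p = 0.0549), 1.16 ± 0.43 in control-miRNA (adjusted p = 0.108) and 0.87 ± 0.43 in IRI mice (adjusted p = 0.201).

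Ccnd1, cyclin D1, the partner of Cdk4 and Cdk6 and an early sensor of growth signals (probe chr7:152116202-152116261, mm9), went the other way in mimic mice. Its levels were 3.1 in mimic 6, 2.85 in mimic 7, 3.95 in control-miRNA 1, 4.06 in control-miRNA 5, 3.63 in IRI 30, 3.80 in IRI 34, 3.81 in sham 1 and 4.15 in sham 4. The 2 mimic mice were below all other 6 mice. IRI mice came next, below both control-miRNA and both sham mice, and only control-miRNA and sham mice overlapped. Ccnd1 differed by -1.01 ± 0.19 in mimic against sham mice (adjusted p = 0.0125) and by -0.74 ± 0.19 in mimic against IRI mice (adjusted p = 0.0473). In mimic against control-miRNA mice the difference was -1.03 ± 0.19 (adjusted p = 0.0662), short of the threshold. The lower level against sham was called in 20 of 23 other settings (adjusted p 0.00315 to 0.333), and that against IRI in 9 of 23 (adjusted p 0.0145 to 0.999). The difference from sham was 0.03 ± 0.19 in control-miRNA and -0.26 ± 0.19 in IRI mice, neither called. Its relative Ccnd2, cyclin D2, which is no member, had levels of 2.49 and 2.52 in mimic, 1.24 and 1.13 in control-miRNA, 1.15 and 1.38 in IRI and 1.69 and 1.73 in sham mice. It was highest in both mimic mice, by 0.79 ± 0.16 over sham (adjusted p = 0.0146) and by 1.24 ± 0.16 over IRI mice (adjusted p = 0.0387). Against control-miRNA mice Ccnd2 differed by 1.32 ± 0.16 (adjusted p = 0.0662). Markers of some other cell types differed in mimic mice as well. In mimic against IRI mice 3 of 3 fibroblast, 2 of 4 endothelial and 2 of 4 macrophage markers were called higher, beside 10.5% of all genes. No proximal tubule, thick limb, collecting duct, podocyte, neutrophil, T cell, B cell or red cell marker was called in that comparison. The collecting duct marker Aqp2 differed by -1.09 ± 0.22 in mimic against sham mice (adjusted p = 0.0140) and by -0.74 against IRI mice, not called. The part of these cell types in the Ccnd1 and Ccnd2 results was not tested.

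Among the 35 members, Ccnd1 was the only one called in mimic against IRI mice, where 16.0% of all genes were called, 5.53% lower and 10.5% higher. In mimic against control-miRNA mice limma called 0 of 35 members (0.00% of all genes), and 5 members had an unadjusted p under 0.05. In control-miRNA against IRI mice it also called 0 (0.00% of all genes), with 0 members under that unadjusted p. These 3 comparisons had median member differences of 0.29, -0.40 and 0.63, beside 0.10, 0.07 and 0.01 over all genes. In control-miRNA against IRI mice all 35 differences were positive. Their medians hung on single mice: without control-miRNA 1 the median was -0.19 against IRI mice and 0.47 in mimic against control-miRNA mice, and without mimic 7 the median in mimic against IRI mice was -0.47. Without control-miRNA 5 the values were 1.55 in control-miRNA against IRI mice and -1.14 in mimic against control-miRNA mice. Leaving out either sham mouse, either IRI mouse, mimic 7 or either control-miRNA mouse ended the call of Ccnd1 against IRI mice. Leaving out mimic 6 raised the count of members called in mimic against IRI mice and in mimic against control-miRNA mice.

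**Figure D3:**
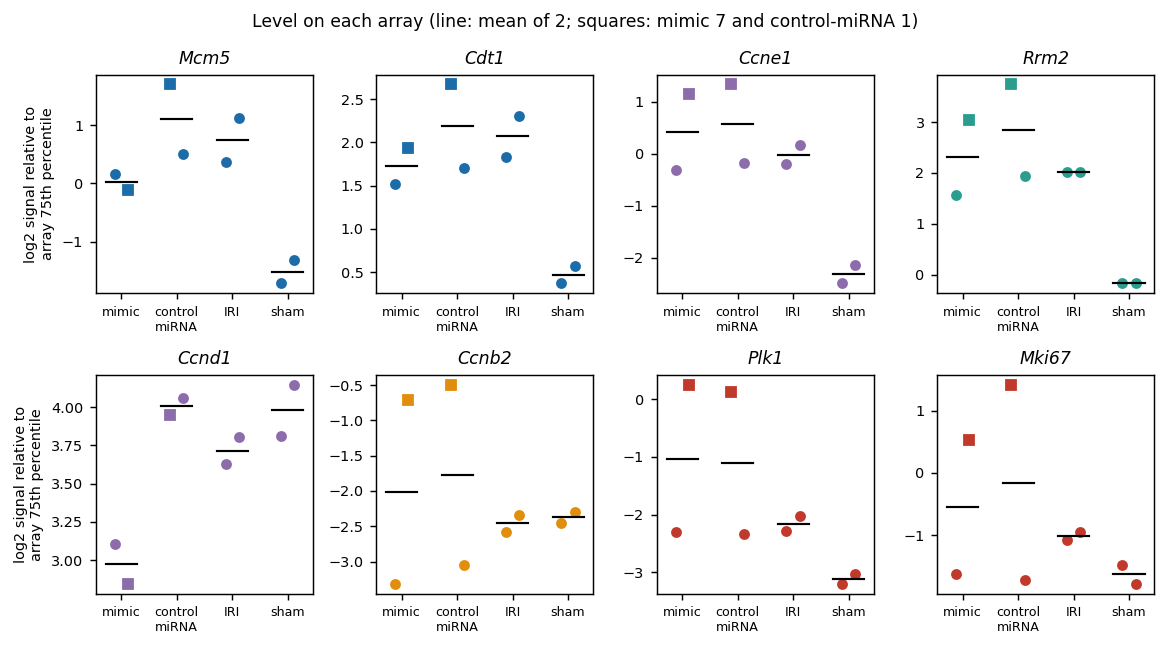
Each panel shows 1 gene, with points for single mice, lines for the means of 2, and the level on the log2 scale on the vertical axis. Mcm5, Cdt1, Ccne1 and Rrm2 lie above sham in all injured kidneys, and Ccnd1 is lowest in both mimic mice. Ccnb2, Plk1 and Mki67 are highest in mimic 7 and control-miRNA 1 (squares), and Plk1 lies above sham in the other injured kidneys too.

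Among the genes that carry cells from S phase through G2 into mitosis, 0 of 5 were called by limma in mimic, control-miRNA or IRI against sham mice, with 1, 2 and 0 at an unadjusted p under 0.05. Of 13 mitosis genes tested, 0 were called in mimic mice, 1 in control-miRNA mice (Tpx2) and 0 in IRI mice, with 2, 3 and 1 at an unadjusted p under 0.05. Of all genes, 15.2%, 9.55% and 9.45% were called higher in mimic, control-miRNA and IRI mice. Neither set was called more often than all genes. In mimic, control-miRNA and IRI mice, both mice lay above both sham mice in 8, 9 and 10 of 13 mitosis genes. For the S/G2/M genes this held in 3 of 5 in each group, and for all genes in 39.1%, 33.1% and 33.0%. Tpx2, and Aurkb outside mimic mice, are among these mitosis genes and were well above background on no sham array. The median differences from sham were 0.94, 1.90 and 1.08 for the 5 S/G2/M genes and 1.33, 1.67 and 0.96 for the 13 mitosis genes. The values of single mice follow.

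Plk1, a kinase that drives entry into and exit from mitosis (probe chr7:129313220-129313279, mm9), had levels of -2.31 in mimic 6, 0.25 in mimic 7, 0.13 in control-miRNA 1, -2.34 in control-miRNA 5, -2.29 in IRI 30, -2.03 in IRI 34, -3.20 in sham 1 and -3.03 in sham 4. Mimic 7 and control-miRNA 1 stood together, far above their group mates, which lay just below the IRI mice and above sham. The differences from sham were 2.09 ± 0.98 in mimic (adjusted p = 0.146), 2.01 ± 0.98 in control-miRNA (adjusted p = 0.200) and 0.96 ± 0.98 in IRI mice (adjusted p = 0.520). Mki67, the proliferation marker Ki-67, had levels of -1.63 in mimic 6, 0.52 in mimic 7, 1.41 in control-miRNA 1, -1.72 in control-miRNA 5, -1.07 in IRI 30, -0.94 in IRI 34, -1.48 in sham 1 and -1.78 in sham 4. Mimic 6 and control-miRNA 5 fell within the sham range, and the difference from sham was 1.07 ± 1.04 in mimic (adjusted p = 0.458), 1.47 ± 1.04 in control-miRNA (adjusted p = 0.367) and 0.62 ± 1.04 in IRI mice (adjusted p = 0.704).

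Ccnb2, cyclin B2, was among the genes with the widest split (chosen after its values were seen), with levels of -3.31 in mimic 6, -0.71 in mimic 7, -0.50 in control-miRNA 1, -3.04 in control-miRNA 5, -2.58 in IRI 30, -2.34 in IRI 34, -2.45 in sham 1 and -2.29 in sham 4. Mimic 6 and control-miRNA 5 were below both sham mice, and the other mice of their groups above all others. Promoters of Plk1 and Ccnb2 are printed because the mitosis genes moved together across mice and mostly share the cell cycle homology region (CHR), which MuvB-type complexes bind. They lie at chr7:122159185-122159484 on the plus strand for Plk1 and chr9:70421505-70421804 on the minus strand for Ccnb2 (RefSeq, GRCm38.p6). Capitals mark matches to TTTGAA or TTCGAA on either strand.
Plk1: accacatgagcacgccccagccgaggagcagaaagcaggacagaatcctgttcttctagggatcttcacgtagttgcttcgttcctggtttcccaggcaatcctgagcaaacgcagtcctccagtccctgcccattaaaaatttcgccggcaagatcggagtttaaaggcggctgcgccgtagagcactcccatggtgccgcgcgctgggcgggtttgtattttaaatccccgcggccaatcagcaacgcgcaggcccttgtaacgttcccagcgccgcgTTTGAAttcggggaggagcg
Ccnb2: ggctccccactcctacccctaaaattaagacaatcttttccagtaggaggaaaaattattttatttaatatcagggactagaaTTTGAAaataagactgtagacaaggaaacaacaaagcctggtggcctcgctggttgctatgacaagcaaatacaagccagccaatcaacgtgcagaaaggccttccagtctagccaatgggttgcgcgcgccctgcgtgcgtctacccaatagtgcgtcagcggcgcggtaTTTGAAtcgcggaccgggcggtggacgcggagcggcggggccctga

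Ccna2, cyclin A2, had levels of -2.35 in mimic 6, -0.11 in mimic 7, 0.21 in control-miRNA 1, -2.40 in control-miRNA 5, -2.20 in IRI 30, -1.69 in IRI 34, -2.60 in sham 1 and -3.58 in sham 4. Ccnb1, cyclin B1, had levels of -3.39 in mimic 6, -2.14 in mimic 7, -0.51 in control-miRNA 1, -3.09 in control-miRNA 5, -2.77 in IRI 30, -2.49 in IRI 34, -3.52 in sham 1 and -3.89 in sham 4. In both genes control-miRNA 1 was the highest mouse and mimic 7 the next, and the other 4 injured kidneys lay above both sham kidneys. Foxm1, a transcription factor of late cell cycle genes, had levels of -2.99 in mimic 6, -1.05 in mimic 7, -0.87 in control-miRNA 1, -3.23 in control-miRNA 5, -2.80 in IRI 30, -2.55 in IRI 34, -4.07 in sham 1 and -4.47 in sham 4. Its injured kidneys did not overlap with sham, and its differences were 2.25 ± 0.85 in mimic (adjusted p = 0.0867), 2.22 ± 0.85 in control-miRNA (adjusted p = 0.117) and 1.59 ± 0.85 in IRI mice (adjusted p = 0.233), none called.

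Top2a, the topoisomerase that untangles sister DNA, had levels of -3.12 in mimic 6, -1.19 in mimic 7, 0.52 in control-miRNA 1, -2.39 in control-miRNA 5, -1.86 in IRI 30, -1.15 in IRI 34, -3.44 in sham 1 and -3.62 in sham 4. Birc5, survivin, a part of the chromosomal passenger complex, had levels of -0.12 in mimic 6, 1.41 in mimic 7, 2.18 in control-miRNA 1, -0.26 in control-miRNA 5, 0.17 in IRI 30, 0.32 in IRI 34, -0.55 in sham 1 and -0.90 in sham 4. Both were highest in control-miRNA 1, and in both every injured kidney lay above sham. Aurkb, the kinase of the same complex, was well above background on 3 arrays only, with levels of -6.24 in mimic 6, -3.58 in mimic 7, -2.34 in control-miRNA 1, -4.54 in control-miRNA 5, -4.35 in IRI 30, -3.82 in IRI 34, -4.85 in sham 1 and -5.37 in sham 4. It was highest in control-miRNA 1, and the order of the arrays below background is not read.

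Tpx2, a spindle assembly factor, had levels of -4.29 in mimic 6, -2.92 in mimic 7, -1.85 in control-miRNA 1, -3.64 in control-miRNA 5, -3.60 in IRI 30, -3.21 in IRI 34, -5.24 in sham 1 and -5.85 in sham 4. No sham array was well above background for it, so its fold change is a bound, taken against the dimmest signal that still counted as well above background on each sham array. It passed the dim-probe filter only through control-miRNA and IRI mice, where it was high. Its p-values are therefore no separate support for a rise. Tpx2 was at least 4.27-fold higher in control-miRNA mice (adjusted p = 0.0319). The bound was 2.70-fold in IRI mice (adjusted p = 0.0661), where Tpx2 was not called. In mimic mice, where only 1 of 2 arrays was well above background, no bound is given, and Tpx2 was not called (adjusted p = 0.0663). Tpx2 kept its control-miRNA call in 13 of 22 other settings.

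Cdk1, the kinase that partners cyclins A and B, gave different pictures on its 2 probes, which are shown because its result turns on which one is read. The brighter probe lies at chr10:68797987-68798046 and the dimmer one spans chr10:68805423-68807832 (mm9, minus strand), a stretch longer than the probe itself.
Cdk1 brighter probe: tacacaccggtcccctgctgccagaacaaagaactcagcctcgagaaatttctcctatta
Cdk1 dimmer probe: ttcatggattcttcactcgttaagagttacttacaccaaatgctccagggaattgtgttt

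The brighter Cdk1 probe read -2.65 in mimic 6, -2.24 in mimic 7, -3.11 in control-miRNA 1, -3.17 in control-miRNA 5, -3.23 in IRI 30, -3.08 in IRI 34, -2.60 in sham 1 and -3.06 in sham 4. Those groups overlapped or lay close together, with differences of 0.39 ± 0.22 in mimic (adjusted p = 0.226), -0.31 ± 0.22 in control-miRNA (adjusted p = 0.382) and -0.32 ± 0.22 in IRI mice (adjusted p = 0.354). The dimmer probe read -4.38 and -4.51 in mimic, -2.12 and -4.85 in control-miRNA, -4.25 and -3.82 in IRI and -6.61 and -6.98 in sham mice. On it control-miRNA 1 was the highest, and sham, mimic 7 and control-miRNA 5 lay below the dimmest signal counted as well above background on their arrays.

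The remaining mitosis genes tested were Aurka, Cdc20, Cenpa, Nusap1, Prc1, Kif20a and Ube2c, with differences from sham of -0.09 to 1.73 in mimic, 0.15 to 1.96 in control-miRNA and -0.68 to 1.23 in IRI mice, none called. A second probe of Prc1, a protein that bundles spindle microtubules, gave the opposite direction in control-miRNA and IRI mice. The other 5 members were not tested. Ccne2, cyclin E2, had levels of -6.04 in mimic 6, -3.74 in mimic 7, -4.37 in control-miRNA 1, -4.52 in control-miRNA 5, -4.74 in IRI 30, -4.41 in IRI 34, -6.68 in sham 1 and -5.80 in sham 4. It was well above background on 3 arrays and highest in mimic 7. The spindle checkpoint genes Bub1, Bub1b and Ttk and the spindle motor gene Kif11 were well above background on 1 to 3 arrays. Bub1 read -5.34 in mimic 6, -2.52 in mimic 7, -2.86 in control-miRNA 1, -4.65 in control-miRNA 5, -4.63 in IRI 30, -4.08 in IRI 34, -5.80 in sham 1 and -6.26 in sham 4. It was highest in mimic 7 and control-miRNA 1, and Bub1b, Ttk and Kif11 were highest in control-miRNA 1.

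The split within the injected groups set the late genes apart from the early ones. Mimic 7 exceeded mimic 6 in 32 of 35 members, control-miRNA 1 exceeded control-miRNA 5 in 34, and IRI 34 exceeded IRI 30 in 33, with median differences of 1.03, 1.79 and 0.32. Over all genes these medians were 0.05, -0.05 and -0.02. A difference above 1 in both injected groups was seen in 17 of 35 members, against 0.625% of all genes (133 of 21264). Aurkb, which is among the 17, was well above background on neither mimic array, so its mimic difference lies below what the array measured. Kif20a, also among them, was well above background on 1 mimic and 1 control-miRNA array, and Tpx2 on 1 mimic array. The lower value of those pairs lies near background. The 17 were 11 of 13 mitosis genes, 4 of 5 S/G2/M genes, Rrm2 and Ccne1, and none of the 9 licensing genes. For the mitosis genes the median difference was 1.93 between mimic 7 and 6 and 2.22 between control-miRNA 1 and 5. For the licensing genes it was 0.36 and 0.73. Each pair is 1 mouse against 1, so these differences have no replicate check and no test.

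**Figure D4:**
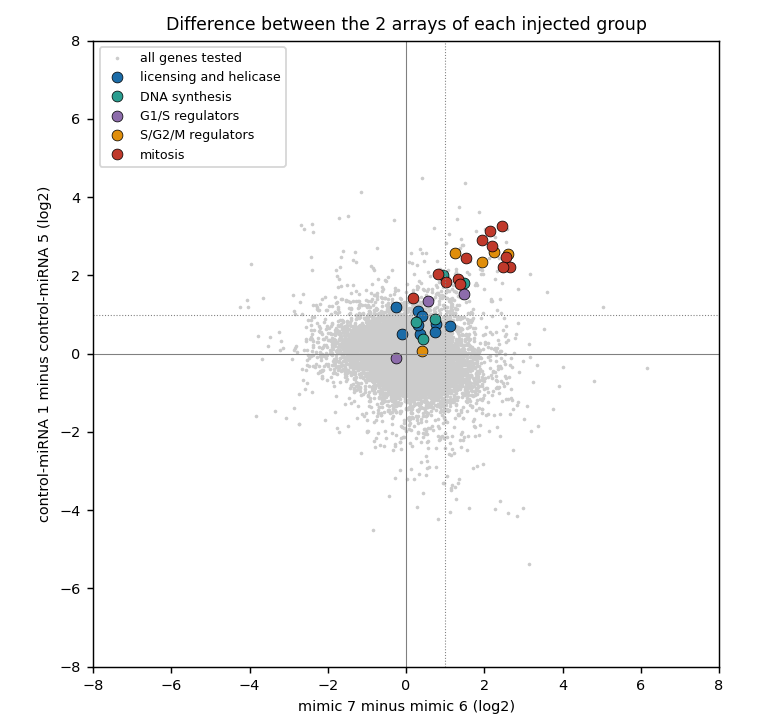
Each point is 1 of 21264 genes, with mimic 7 minus mimic 6 on the horizontal and control-miRNA 1 minus control-miRNA 5 on the vertical axis (log2). Dotted lines mark a difference of 1. Mitosis and S/G2/M genes lie in the upper right, beyond both lines in 15 of 18 cases, and licensing genes near the centre.

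Leaving out mimic 7 and control-miRNA 1 together, a setting added after the data were seen, changed the calls of the late genes. In IRI against sham mice 24 of 35 members then rose, with 31.9% of all genes called. For this comparison the fit equals one of only the 4 sham and IRI arrays, since a lone mouse adds nothing to the estimate of the spread. They included Plk1, Mki67, Top2a, Aurka, Birc5, Ccnb1, Cdc20, Foxm1 and Prc1. Aurkb and Tpx2 were also among the 24, but neither was well above background on any sham array, and both passed the filter through groups in which they were high. In mimic against sham mice 15 rose and 2 fell (27.8% of all genes called), the 2 being Ccnd1 and Ccnb2. In control-miRNA against sham mice 13 rose (16.2% of all genes called). The shares of all genes beside these counts cover calls in either direction. With 1 mouse left in each injected group, that mouse is assumed to vary like the sham and IRI mice. The 2 mice left out were picked because most late genes were higher in them than in their group mates. The mouse kept was thus the lower one by choice, so the mimic and control-miRNA counts decide nothing about the late genes. By limma with both mimic mice, Ccnb2 differed from sham by 0.36 ± 1.00 (adjusted p = 0.803) and was not called.

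Levels of other cell types moved with this split. The summed linear level of 2 podocyte markers (relative to the 75th percentile) was 9.55 in mimic 6, 15.8 in mimic 7, 11.2 in control-miRNA 1, 1.31 in control-miRNA 5, 5.66 and 4.49 in IRI and 10.2 and 11.6 in sham mice. That of 4 red cell markers was 3.70 in mimic 6, 0.610 in mimic 7, 2.32 in control-miRNA 1, 6.04 in control-miRNA 5, 3.86 and 2.15 in IRI and 7.39 and 6.81 in sham mice. Endothelial markers (4) summed to 11.7 in mimic 6, 14.7 in mimic 7, 6.89 in control-miRNA 1, 5.71 in control-miRNA 5, 7.84 and 6.89 in IRI and 9.73 and 11.7 in sham mice. Fibroblast markers (3) summed to 16.6 in mimic 6, 27.1 in mimic 7, 12.1 in control-miRNA 1, 10.9 in control-miRNA 5, 6.64 and 4.54 in IRI and 9.26 and 10.2 in sham mice. Within each injected pair, podocyte, endothelial and fibroblast markers were higher, and red cell markers lower, in the mouse with high mitosis genes. Across all 8 mice this order did not hold, since the podocyte sum of control-miRNA 1 was below that of sham 4. The part of these cell types in the result was not tested. The 4 proximal tubule markers, each well above background in every group, summed to 114 and 162 in mimic, 128 and 127 in control-miRNA, 120 and 144 in IRI and 476 and 511 in sham mice. Neutrophil markers (5) summed to 10.5 and 5.83 in mimic, 12.4 and 15.3 in control-miRNA, 7.58 and 10.8 in IRI and 2.99 and 2.89 in sham mice. They were lower in mimic 7 than in mimic 6 and in control-miRNA 1 than in control-miRNA 5. T cell markers (4) summed to at most 4.08 on any array, with Cd8a well above background on none.

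Other genes of these pathways were taken from lists drawn up by function, and their counts of higher calls are set against 15.2%, 9.55% and 9.45% of all genes in mimic, control-miRNA and IRI against sham mice. Of 38 further origin and fork genes, 13 rose in mimic, 15 in control-miRNA and 9 in IRI mice, and 0 fell. Pold1, the catalytic subunit of polymerase delta, had levels of 1.53 and 1.78 in mimic, 1.33 and 1.29 in control-miRNA, 1.44 and 1.55 in IRI and -0.25 and -0.31 in sham mice. It rose by 1.94 ± 0.16 in mimic, 1.59 ± 0.16 in control-miRNA and 1.78 ± 0.16 in IRI mice (adjusted p = 0.00140, 0.00251 and 0.00157), with no overlap between injured and sham kidneys. Cdc7, the kinase that fires licensed origins, rose by 2.40 ± 0.23 in mimic, 2.39 ± 0.23 in control-miRNA and 2.17 ± 0.23 in IRI mice (adjusted p = 0.00181, 0.00214 and 0.00235). Orc1, which marks origins and was not well above background in sham mice, was at least 2.28-fold higher in mimic, 2.49-fold in control-miRNA and 2.23-fold in IRI mice (adjusted p = 0.00316, 0.00355 and 0.00367). Orc1 passed the dim-probe filter only through injured groups, where it was high. Its p-values are therefore no separate support for the rise, and the counts above include it. In mimic against IRI mice only 2 of the 38 were called higher and 0 lower, where 10.5% of all genes were called higher. They were Pole2, a subunit of polymerase epsilon, by 2.09 ± 0.43 (adjusted p = 0.0387) and Dbf4, the partner of Cdc7, by 1.19 ± 0.31 (adjusted p = 0.0468).

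Of 18 CDK inhibitors and checkpoint genes tested, 6 rose and 1 fell in mimic, 6 rose in control-miRNA and 7 rose in IRI mice, against 15.2%, 9.55% and 9.45% of all genes called higher. Cdkn1a, the CDK inhibitor p21, had levels of 1.91 and 0.19 in mimic, 2.54 and 1.48 in control-miRNA, 1.53 and 1.13 in IRI and -2.49 and -2.59 in sham mice. All injured kidneys lay far above sham, and mimic 7 was the lowest of them. The differences were 3.59 ± 0.58 in mimic, 4.55 ± 0.58 in control-miRNA and 3.87 ± 0.58 in IRI mice (adjusted p = 0.00751, 0.00467 and 0.00733). Sfn, the checkpoint protein 14-3-3 sigma, rose by 3.34 ± 0.48, 3.36 ± 0.48 and 3.55 ± 0.48 in mimic, control-miRNA and IRI mice (adjusted p = 0.00565, 0.00688 and 0.00547). Btg2, an antiproliferative gene, rose by 2.01 ± 0.29 in mimic, 2.19 ± 0.29 in control-miRNA and 2.57 ± 0.29 in IRI mice (adjusted p = 0.00530, 0.00518 and 0.00280). Btg1, a relative of Btg2, differed by 0.79 ± 0.17 in mimic, 1.23 ± 0.17 in control-miRNA and 1.28 ± 0.17 in IRI mice. In Cdkn1a, Sfn and Btg2, as in most licensing genes, all 6 injured kidneys lay above both sham kidneys. Like Pold1, these genes were picked by smallest p among called genes, so their lack of overlap adds no support.

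Of 28 E2F, RB and G1 kinase genes tested, 8 rose and 6 fell in mimic mice, 7 rose in control-miRNA and 7 rose in IRI mice. Of all genes, 15.2% were called higher and 12.8% lower in mimic mice, and 9.55% and 9.45% higher in control-miRNA and IRI mice. E2f3, counted as a rise in each group, was well above background on no sham array. Cdc25b, among the 6 that fell, was well above background on no mimic array. Both passed the dim-probe filter only through groups where they were high, so their p-values are no separate support. Myc, a factor that promotes growth, rose by 2.44 ± 0.30, 3.15 ± 0.30 and 3.39 ± 0.30 in mimic, control-miRNA and IRI mice (adjusted p = 0.00366, 0.00215 and 0.00146). In mimic against IRI mice 1 of the 28 was called higher and 2 lower, beside 10.5% and 5.53% of all genes. There Cdk7, the CDK-activating kinase, differed by -1.79 ± 0.35 (adjusted p = 0.0387) and E2f5, a repressive E2F, by -0.98 ± 0.21 (adjusted p = 0.0387). Of 38 further kinetochore and spindle genes tested, 7 rose in mimic, 7 in control-miRNA and 4 in IRI mice, and in mimic and IRI mice these shares were near the 15.2% and 9.45% of all genes. Trip13, a remodeller of spindle checkpoint proteins that was not well above background in sham mice, was at least 7.46-fold higher in mimic, 9.63-fold in control-miRNA and 8.11-fold in IRI mice (adjusted p = 0.00376, 0.00324 and 0.00372). Trip13 and Cenph, both counted above, passed the dim-probe filter only through injured groups, where they were high. Their p-values are no separate support for a rise. In this list 15 of 38 genes (39.5%) exceeded a difference of 1 in both injected pairs, against 1 of 38 origin and fork genes (2.63%).

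Promoter sequence, which the choice of members did not use, also differed between roles. The RefSeq table held promoters for 32 of the 40 members and for 27025 genes in all, and a gene was counted if any of its promoters held a match on either strand. Matches of 1 motif on both strands may overlap, as in the palindromic stretch at the end of the Mcm3 promoter. The E2F-type motifs were found in 6 of 8 licensing genes (75%), 2 of 5 synthesis genes, 0 of 2 G1/S genes, 2 of 3 S/G2/M genes and 1 of 14 mitosis genes (7.14%), against 10.9% of all genes. Mcm3, Mcm5, Mcm6, Mcm7, Cdc6 and Cdt1 held one, and Mcm2 and Mcm10 did not. The CHR-type motifs were found in 12 of 14 mitosis genes (85.7%), 2 of 3 S/G2/M genes, 0 of 2 G1/S genes, 0 of 5 synthesis genes and 2 of 8 licensing genes (25.0%), against 21.7% of all genes. Among mitosis genes, Birc5 and Nusap1 held none in this window. CCAAT, the box bound by NF-Y, was found in 12 of 14 mitosis genes and 6 of 8 licensing genes (75%), against 41.1% of all genes. Among the further genes, E2F-type motifs were found in 18 of 30 origin and fork genes (60.0%) and in 13 of 40 kinetochore and spindle genes (32.5%), both above the share of all genes, unlike the mitosis members. CHR-type motifs were found in 7 (23.3%) and 29 (72.5%) of them. These counts describe letters in a window, and no test of them was made.

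**Figure D5:**
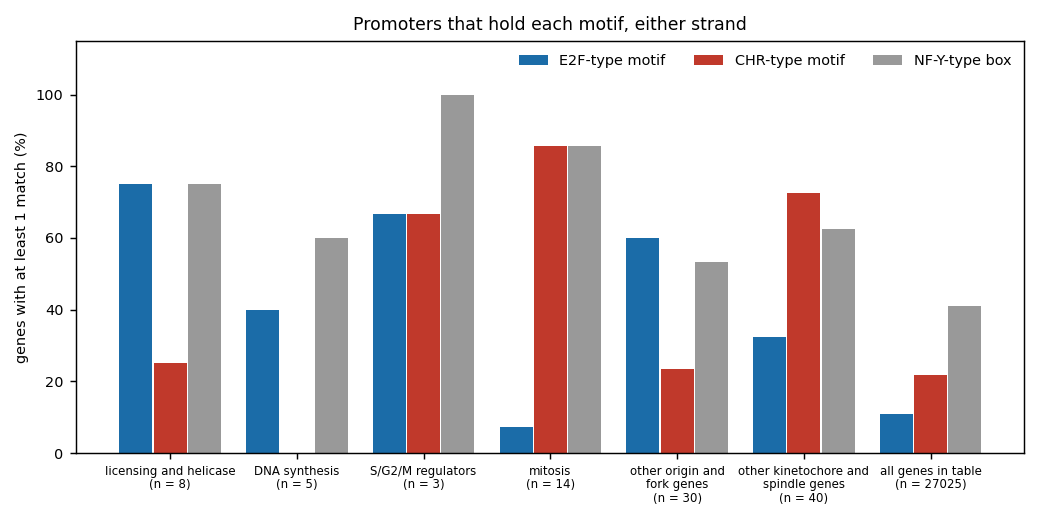
Bars give the percentage of genes whose promoter holds at least 1 match to each kind of motif, from 0, for members by role, for further genes of the same pathways and for all genes in the RefSeq table. E2F-type motifs reach 75% in licensing genes and 7.14% in mitosis genes, and CHR-type motifs 25.0% and 85.7%.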

How the data were processed

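RNA of 8 left kidneys was hybridised to 8 1-colour arrays on 1 slide with 1 scan time. Per the file headers, the deposited intensity values were background-subtracted and detrended by Agilent Feature Extraction 12.0.3.1 and not scaled between arrays; probe positions are on mm9. The authors' deposited value table holds a linear ratio of each probe to its median over the 8 arrays, with its scaling between arrays not given in the sources used here; it served as an alternative.

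Control spots and outlier spots were left out. Processed signals were divided by the array's 75th percentile and put on the log2 scale. Of 56605 probes, 32218 passed the dim-probe filter, which asked that the 2 arrays of some group be well above background, the brightest kept probe stood for each gene, and 21264 genes were tested with limma 3.58.1 (R 4.3.3; lmFit, eBayes, Benjamini-Hochberg over all genes, threshold 0.05). Genes were named by RefSeq accession for 33709 probes, by current symbol for 9850, by an older symbol for 310 and by the file's own name for 12662. Each of 6 comparisons used group means over all arrays. The labels give each mouse a number, and nothing says more of how mice were kept, so p-values measure the spread between these 2 samples per group. The script was tested on simulated data.

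The members and lists were chosen with earlier results of these data known. Values on every array were given for a list of members and any called member, and for up to 4 further genes per list by smallest p; Ccnb2, Ccne2 and Bub1 were added after their values were seen. Alternatives covered the dim-probe filter, background correction and scaling, the deposited ratios, the choice of probe and name, brightness and slide column as covariates, array weights, variance estimation, fits of single comparisons and leaving out mice. The levels of some marker genes are not reported here.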

Additional observations from a re-analysis of the deposited data

How the results depend on the processing

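All values here are counts of members called unless named otherwise. Counts over all genes follow for some settings only, so a change in the members alone cannot be read from the others. Leaving out 1 mouse at a time gave 1 to 11 in IRI against sham mice, 2 to 15 in mimic against sham, 1 to 21 in control-miRNA against sham, 0 to 2 in mimic against control-miRNA, 0 to 2 in mimic against IRI and 0 in control-miRNA against IRI mice. With no filter on dim probes, 5 were called in IRI and 8 in control-miRNA against sham mice. With array brightness as a covariate the counts were 0 in mimic and 4 in IRI against sham mice and 0 in mimic against IRI mice. With the slide column as a covariate they were 0 in control-miRNA and 0 in IRI against sham mice and 0 in mimic against IRI mice. Array weights gave 5 in mimic and 13 in IRI against sham mice and 0 in mimic against IRI mice. Fits of only the 4 arrays compared gave 24 in IRI against sham mice and 0 in mimic against IRI mice. Without mimic 7 and control-miRNA 1 (added after seeing the data), 17 were called in mimic and 24 in IRI against sham mice, and 0 in mimic against IRI mice. Quantile normalization and the deposited ratios each gave 0 in mimic against IRI mice. In mimic against control-miRNA mice, 1 member (Ccnd1) was called with probes above background on all arrays, 1 with normexp and quantile normalization, 1 with a trended and robust variance, and 3 with normexp and the 75th percentile, which gave 4 in mimic against IRI mice. The mean over probes turned Mcm10 to 1.29 in control-miRNA and 1.07 in IRI against sham mice. The cause of these changes was not tested, except that a fit of fewer arrays estimates the spread from those arrays alone. Mimic 7 and control-miRNA 1 were picked on the members' own levels, so the mimic counts without them are not read as results.

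Over all genes, the count called in IRI against sham mice was 3891, beside 2450 with no filter, 7995 with array weights and 6785 in a fit of the 4 arrays. In mimic against control-miRNA mice it was 0, beside 4435 with normexp and the 75th percentile and 1955 with a trended and robust variance. In both of these fits the members called were a smaller share of the members tested than the genes called were of all genes. No paired analysis was possible because the groups compared share fewer than 2 mouse numbers, and equal numbers are different mice. With 2 mice a group, dim probes such as those of Aurkb, Tpx2 and the 5 untested members give bounds or levels near background.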

Other observations

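Beyond the genes named above, others, some of them in the same lists, split the injected mice in the same way (chosen after their values were seen). Of 21264 genes, 133 were higher by more than 1 on the log2 scale in mimic 7 than in mimic 6 and in control-miRNA 1 than in control-miRNA 5, and 26 were lower by as much in both. The 133 held 12 of 47 clustered histone genes tested, which encode the histones made in S phase. H2ac23 differed by 2.57 in the mimic pair and 3.19 in the control-miRNA pair, and H2ac4 by 2.26 and 2.98. Cdca3, a mitotic entry gene, differed by 2.55 and 2.85, and E2f8, a repressive E2F, by 2.13 and 2.44. Of the 133, 37 were in the lists used here, members included. Genes in none of these lists were also among the 133, such as Wt1 (1.43 and 2.78) and Ptpro (1.47 and 2.77). The 26 lower genes held 5 of 5 globin genes. Hba-a1 differed by -2.73 in the mimic pair and -1.80 in the control-miRNA pair, and Alas2, the haem synthesis enzyme of red cell precursors, by -1.73 and -2.01. Each pair is 1 mouse against 1, and no test was made.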
